A study of Homo sapiens with 6 samples.

Results

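The genes described here are 40 genes of the Fanconi anemia pathway, homologous recombination and the DNA damage checkpoint. They were chosen by name from the 58735 genes of the deposited count table, and each name matched 1 row. RNA was measured by polyA-selected RNA-seq in the SW1990 line of pancreatic ductal adenocarcinoma, long established in culture, in 3 libraries of cells given 5 µM EPZ-5676 (EPZ) and 3 control libraries (NC). EPZ-5676 inhibits DOT1L, the methyltransferase of lysine 79 of histone H3, a mark found along the bodies of transcribed genes. One label field calls the control cells untreated, while the protocol gives them the same volume of the solvent DMSO, and how long cells were treated was not given in the labels. Nothing in the labels says that the replicates were separate cultures, so p-values measure the spread between these libraries, which may be technical. Levels in single libraries are given in CPM, read counts scaled to library size.

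The Fanconi pathway repairs crosslinks between DNA strands. A core complex of Fanconi proteins, with the ubiquitin carrier UBE2T, attaches ubiquitin to the pair FANCI and FANCD2, and the pair then directs nucleases and recombination proteins to the lesion. Homologous recombination rebuilds a broken duplex from an intact copy. Broken ends are trimmed by MRE11, RAD50, NBN, RBBP8 and EXO1, strand exchange is prepared with the help of BRCA1, PALB2 and BRCA2, and joint molecules are processed by BLM, SLX4, MUS81 and EME1. The kinases ATM and ATR sense breaks and stalled forks and act through CHEK2 and CHEK1 to hold the cell cycle. Inherited mutations of BRCA2, BRCA1, PALB2 and ATM are known risk factors for pancreatic cancer.

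Most of the genes that changed were lower in EPZ cells. Of the 40 genes, all of which passed the filter on low counts, 14 were lower (35%) and 1 was higher (2.5%) at an adjusted p under 0.05, while 18.7% of all 15496 tested genes were lower and 15.0% higher (edgeR's quasi-likelihood test, Benjamini-Hochberg adjustment over all tested genes). The lower genes were the FANCI-FANCD2 pair, BRCA1 and BRIP1, RAD51AP1 and XRCC2, MRE11, RBBP8 and EXO1, BLM and EME1, and the kinases ATM, CHEK1 and CHEK2. None of them belonged to the core complex, whose member FANCG was the 1 gene that was higher. In these bulk samples, fewer cells in a phase that expresses a gene and less of its RNA per cell cannot be told apart. Every EPZ library lay below every NC library for 17 of the 40 genes (42.5%, and 24.2% of all tested genes) and above for 2 (5%, and 21.8% of all tested genes), and the groups overlapped for 21. The median log2 fold change of the 40 genes was -0.50, beside -0.052 over all tested genes, and their range was -1.24 to 0.43.

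The libraries held 33970420 to 39749648 reads in EPZ cells and 35042563 to 38132352 reads in NC cells. Fold changes across the table moved with the GC content of the transcripts. The Pearson correlation of log2 fold change with GC content was 0.59 over the 40 genes and 0.59 over 15487 tested genes with a GC value, a description across genes that share the same 6 libraries. A correction that takes smooth trends with GC content and length out of each library, and with them any treatment effect that follows these properties, was run beside the main test and is called the correction from here on. After it, 5 of the 40 genes were lower (12.5%) and 0 higher, while 5.57% of all tested genes were lower and 5.40% higher. At an unadjusted p under 0.05 in the same edgeR fit, 10 of the 40 were lower and 1 higher. The share of all tested genes at that unadjusted threshold was not computed, so these counts cannot be judged against it. The median of the 40 genes relative to the NC mean was -0.61, -0.40 and -0.30 on the log2 scale in EPZ replicates 1 to 3, and 0.11, -0.13 and 0.020 in NC replicates 1 to 3. Without EPZ replicate 1, the farthest from the NC mean, 12 of the 40 genes were lower and 0 higher. Over all genes that fit called 1884 lower and 1350 higher, beside 2899 and 2326 with all libraries.

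The label of the cells was checked against marker genes. The epithelial keratins KRT8, KRT7 and KRT18 averaged 3429.7, 2258 and 1493 CPM in EPZ cells and 2658, 1883 and 1194 CPM in NC cells. CDH1, which defines epithelial junctions, had 0 reads in all 6 libraries, KRT19 averaged 0.385 CPM in EPZ and 0.430 CPM in NC cells, and EPCAM 1.08 CPM in EPZ and 1.89 CPM in NC cells. Summed over 8 ductal epithelial markers, of which 3 of 7 tested were higher, the level was 6682 to 8499 CPM in EPZ and 5472 to 6282 CPM in NC libraries. Fibroblast markers (7 genes, 2 lower and 1 higher of 6 tested) summed to 95.9 to 102 CPM in EPZ and 89.8 to 95.1 CPM in NC libraries, of which COL1A1 gave 61.6 CPM in EPZ and 44.3 CPM in NC cells. The 6 immune markers (1 tested, higher) summed to 3.85 to 5.82 CPM in EPZ and 2.29 to 10.3 CPM in NC libraries. Among them PTPRC had 153 reads in NC replicate 2, 8 in EPZ replicate 2 and 0 in the other libraries. CD3E had 14 reads in NC replicate 2 and 0 in the other libraries. The 4 endothelial markers summed to 1.37 to 3.25 CPM in EPZ and 1.63 to 3.18 CPM in NC libraries. Of 6 acinar and islet markers, 5 had 0 reads. The part of these markers in the results was not tested.

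**Figure D1:**
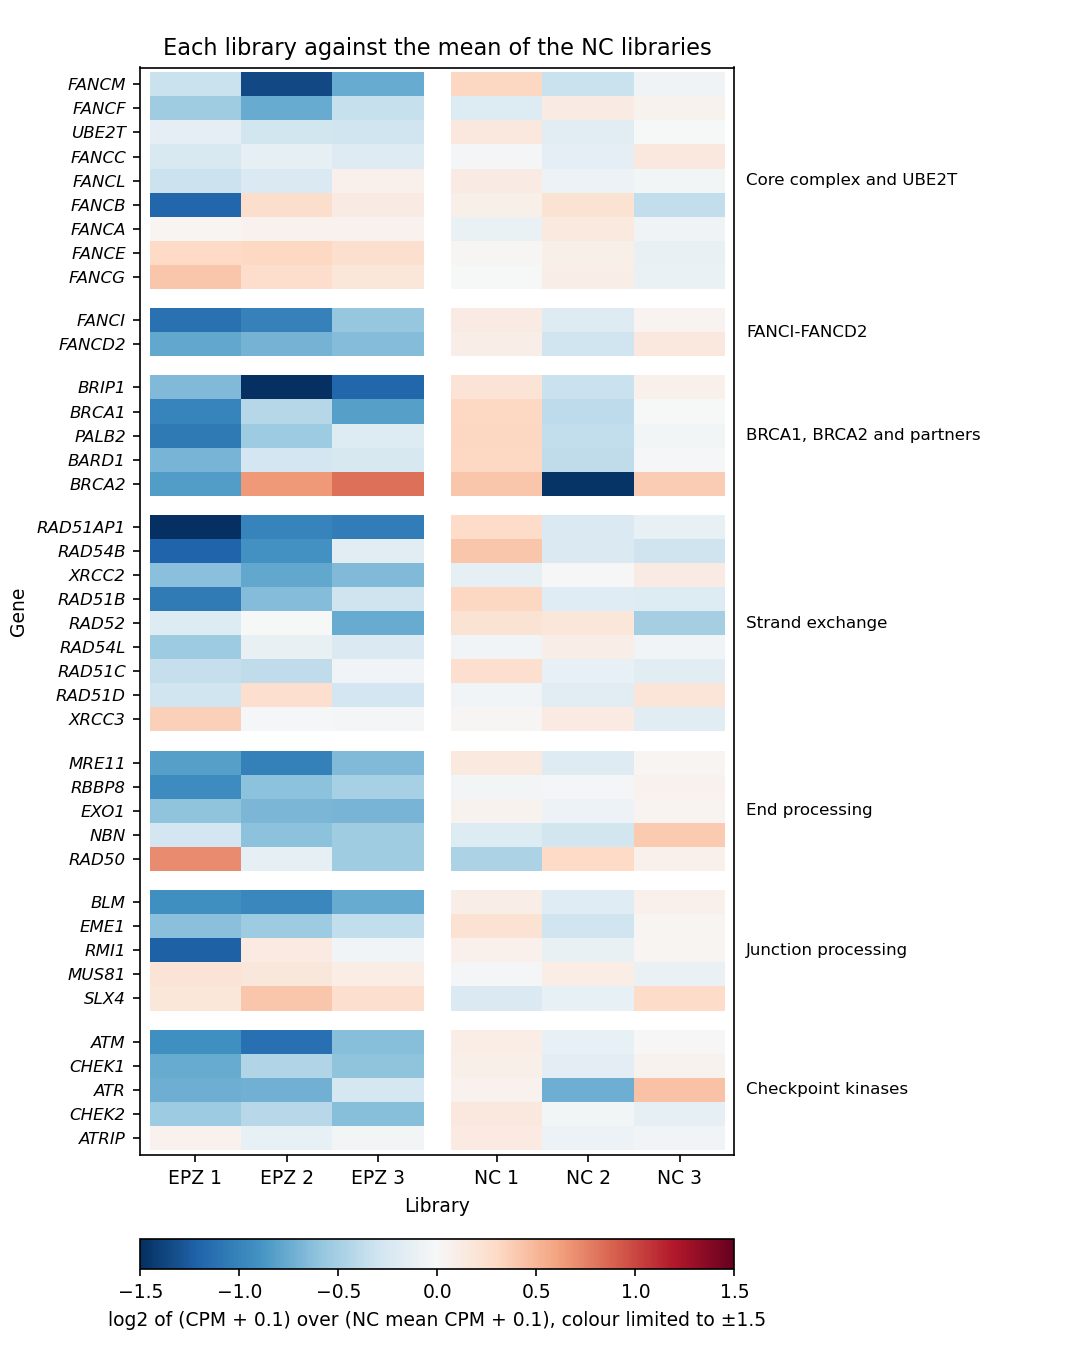
Level of the 40 genes in each library relative to the mean of the NC libraries, on a log2 scale (columns are 3 EPZ and 3 NC libraries, rows are genes by role, blue is lower and red higher). The 17 genes whose EPZ libraries all lie below the NC libraries include FANCI, FANCD2, RAD51AP1, MRE11, EXO1, BLM, ATM and CHEK1.

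Promoter windows are shown for RAD51AP1, ATM and MRE11, 3 of the lower genes with the smallest p whose windows hold a motif searched for here. These windows were chosen for holding a motif, so its presence in them is not a result. The windows run from 250 bases before to 50 after the transcript start in RefSeq (GRCh38.p14), and capitals mark the motifs. RAD51AP1 (chr12:4538640-4538939, plus strand) holds CCAAT on the reverse strand. ATM (chr11:108222817-108223116, plus strand) holds TTTGAA and, on the reverse strand, CCAAT. MRE11 (chr11:94493795-94494094, minus strand) holds CCAAT once on each strand.
RAD51AP1: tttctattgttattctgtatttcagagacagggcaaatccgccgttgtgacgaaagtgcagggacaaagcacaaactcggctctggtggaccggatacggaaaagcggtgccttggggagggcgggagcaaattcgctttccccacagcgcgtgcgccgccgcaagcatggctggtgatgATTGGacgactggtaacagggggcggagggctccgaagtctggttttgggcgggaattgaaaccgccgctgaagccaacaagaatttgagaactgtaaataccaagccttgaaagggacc
ATM: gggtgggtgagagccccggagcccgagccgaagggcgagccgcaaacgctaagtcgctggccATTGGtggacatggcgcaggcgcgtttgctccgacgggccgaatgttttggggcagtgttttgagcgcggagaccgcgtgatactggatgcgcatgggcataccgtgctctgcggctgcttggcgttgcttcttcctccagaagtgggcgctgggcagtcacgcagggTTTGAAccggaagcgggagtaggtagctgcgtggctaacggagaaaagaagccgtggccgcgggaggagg
MRE11: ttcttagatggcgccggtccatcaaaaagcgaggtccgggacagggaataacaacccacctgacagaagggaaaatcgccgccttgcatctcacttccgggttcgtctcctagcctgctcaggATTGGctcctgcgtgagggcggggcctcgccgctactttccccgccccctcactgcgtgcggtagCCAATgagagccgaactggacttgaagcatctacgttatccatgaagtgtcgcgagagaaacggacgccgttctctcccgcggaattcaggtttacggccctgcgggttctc
Of the 40 genes 37 had a window, and both strands were searched. CCAAT was found in 18 of 37 (48.6%), beside 42.6% of 10492 tested genes with a window. The CHR element (TTTGAA or TTCGAA) was found in 4 (10.8%, beside 15.1%), E2F sites (TTTGGCGC, TTTCCCGC, TTTGCCGC or TTTCGCGC) in 6 (16.2%, beside 6.51%) and the CRE (TGACGTCA) in 3 (8.11%, beside 3.79%). Of the 13 lower genes with a window, 8 held CCAAT, 2 the CHR element, 3 an E2F site and 2 the CRE. A match is a description of the letters, not of binding.

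The pair that the core complex modifies was lower in EPZ cells, both before and after the correction. FANCI (ENSG00000140525, chromosome 15, 89243949 to 89317261, plus strand, GRCh38) had 21.4, 23.0 and 31.3 CPM in EPZ libraries and 51.0, 41.0 and 48.2 CPM in NC libraries. The groups did not overlap, and the highest EPZ library was under the lowest NC library by a wide margin. The log2 fold change of FANCI was -0.89 ± 0.14 (SE, n = 3 libraries each; edgeR adjusted p = 0.000246). The corrected value was -0.51 ± 0.11 (edgeR adjusted p = 0.00483). Its partner FANCD2 (ENSG00000144554, chromosome 3, 10026414 to 10101930, plus strand) stood at 17.9, 18.9 and 19.6 CPM in EPZ cells and 33.1, 25.0 and 34.5 CPM in NC cells. The 3 EPZ values of FANCD2 lay close together and below all NC values. Its log2 fold change was -0.72 ± 0.15 (edgeR adjusted p = 0.00129), or -0.36 ± 0.11 once corrected (0.0431). With the correction and 1 library left out, FANCI passed in all 6 fits. FANCD2 then missed the threshold without EPZ replicate 1, 2 or 3 (edgeR adjusted p = 0.0847, 0.13 and 0.106) and without NC replicate 1 or 3 (0.104 and 0.158). The pseudogene FANCD2P2 had 15 reads over all 6 libraries.

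In the core complex with UBE2T, 0 of 9 genes were lower and 1 was higher, beside 18.7% and 15.0% of all tested genes, and for so few genes such counts do not set the complex apart. After the correction 0 were called in either direction. At an unadjusted p under 0.05, for which no share of all tested genes was computed, edgeR gave 2 lower and 2 higher. DESeq2 called 0 lower and 2 higher (FANCG and FANCE). FANCG (ENSG00000221829, chromosome 9, 35073835 to 35080016, minus strand), a scaffold subunit, had 163, 147 and 139 CPM in EPZ cells and 122, 131 and 114 CPM in NC cells. All 3 EPZ values were above all NC values, with a log2 fold change of 0.30 ± 0.10 (edgeR adjusted p = 0.0297). The call was lost without EPZ replicate 1 (0.132), EPZ replicate 2 (0.0626) or NC replicate 3 (0.132), and the log2 fold change was -0.0040 ± 0.078 after the correction (adjusted p = 0.983). FANCE, which links the core complex to FANCD2, had 35.0, 35.5 and 34.1 CPM in EPZ cells and 28.9, 30.4 and 26.4 CPM in NC cells. Its groups did not overlap either, but edgeR's adjusted p was 0.0793, and 0.047 without NC replicate 2. The catalytic subunit FANCL, a ubiquitin ligase, stood at 4.60, 4.96 and 6.07 CPM in EPZ and 6.29, 5.41 and 5.60 CPM in NC cells, with a log2 fold change of -0.14 ± 0.22. UBE2T had 42.3, 38.4 and 38.0 CPM in EPZ and 52.3, 41.7 and 46.6 CPM in NC cells. The log2 fold change of UBE2T was -0.25 ± 0.12 before (adjusted p = 0.121) and 0.28 ± 0.10 after the correction (0.0814), so its sign turned without a call on either side. FANCA, the subunit most often mutated in Fanconi anemia, had log2 fold changes of 0.052 ± 0.11 before and -0.15 ± 0.092 after the correction. FANCC was at -0.19 ± 0.15 and the X-linked subunit FANCB at -0.14 ± 0.36 before it, and the groups of both overlapped. FANCF, an adaptor, had EPZ values of 3.83, 3.28 and 4.40 CPM, all below its NC values of 4.85, 6.12 and 5.84 CPM, with an adjusted p of 0.0789. The DNA translocase FANCM was sparse, at 1.90, 0.884 and 1.39 CPM in EPZ and 3.04, 1.89 and 2.30 CPM in NC cells (log2 fold change -0.80 ± 0.36, adjusted p = 0.0894).

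**Figure D2:**
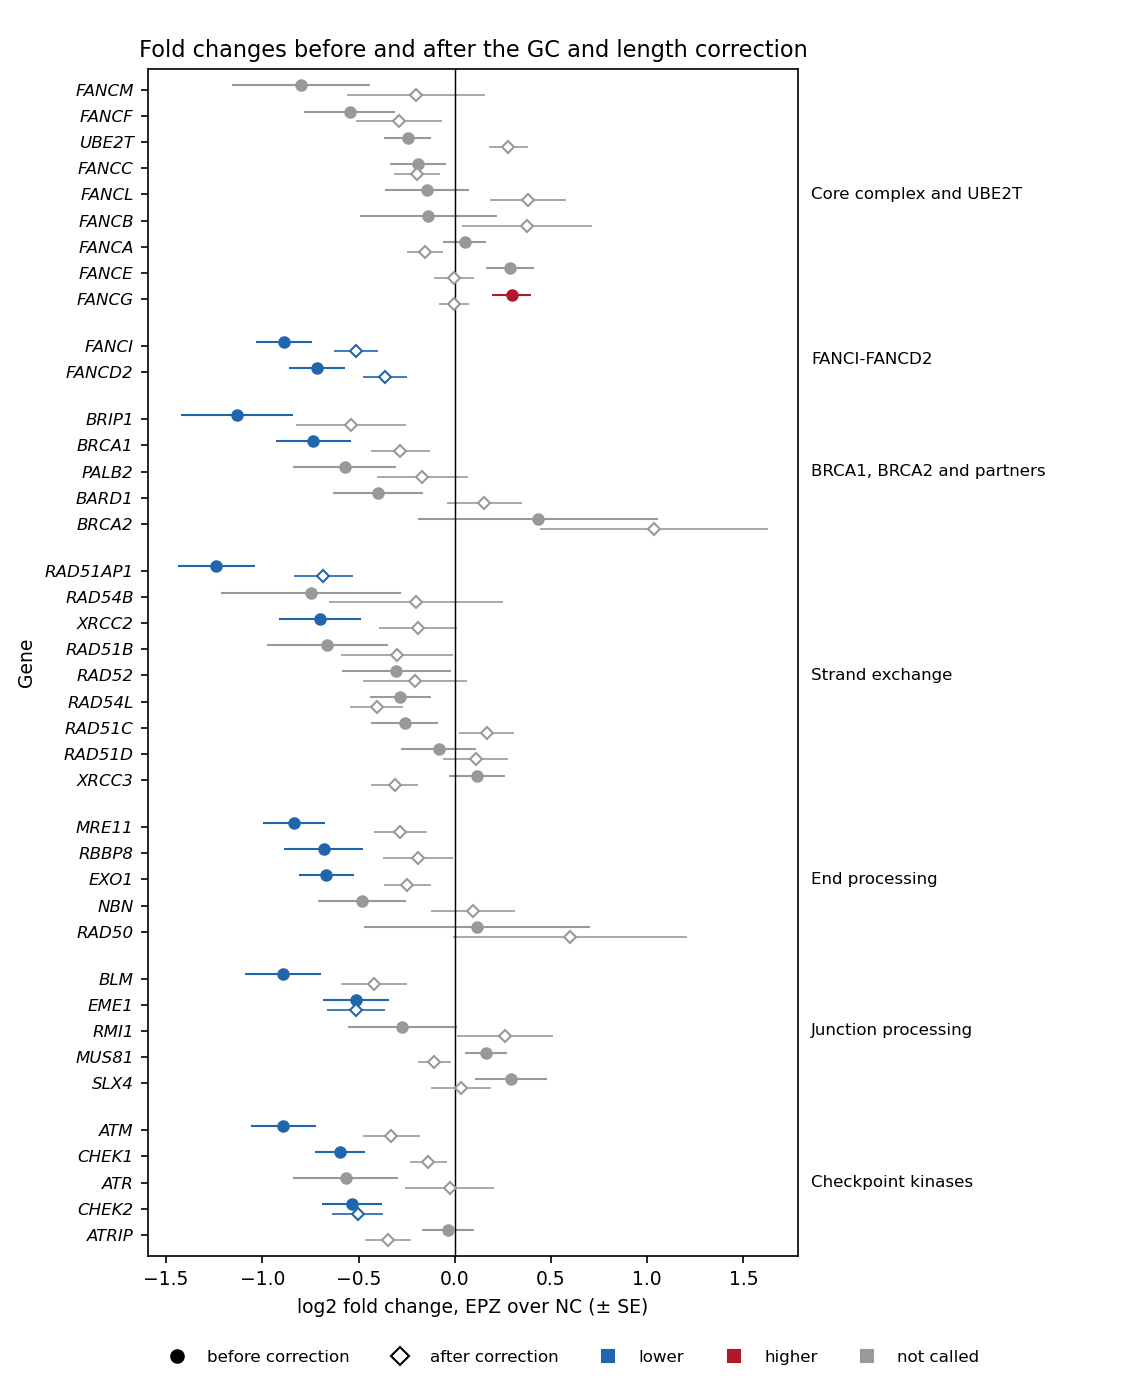
Log2 fold change of EPZ over NC with its standard error for the 40 genes by role (circles before and open diamonds after the GC and length correction, coloured by call, n = 3 libraries each). After the correction FANCI, FANCD2, RAD51AP1, EME1 and CHEK2 are called lower, and FANCG lies at the zero line.

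BRCA1 and its helicase partner BRIP1 were lower in EPZ cells before the correction and not called after it, as 2 of 5 genes of this role beside 18.7% of all tested genes. All 5 have a GC content below 43.9%, where 44.7% of all tested genes were lower. BRIP1 (chromosome 17, 61681266 to 61863521, minus strand) had 2.99, 1.54 and 2.05 CPM in EPZ cells and 5.56, 3.78 and 5.04 CPM in NC cells. The groups did not overlap, and BRIP1 and RAD51AP1 were the 2 genes lower by at least 2-fold. The log2 fold change of BRIP1 was -1.13 ± 0.29 (edgeR adjusted p = 0.00558), and -0.54 ± 0.29 (0.257) after the correction. BRCA1 (chromosome 17, 43044295 to 43170245, minus strand) had 8.40, 12.5 and 9.46 CPM in EPZ cells and 20.9, 12.8 and 16.8 CPM in NC cells. The groups nearly met, at EPZ replicate 2 and NC replicate 2. BRCA1 had a log2 fold change of -0.74 ± 0.19 (edgeR adjusted p = 0.00677), which missed the threshold without NC replicate 1 (0.0656) and was -0.28 ± 0.15 (0.269) after the correction. BARD1, the partner of BRCA1 in its ubiquitin ligase, was at 3.99, 5.39 and 5.49 CPM in EPZ and 8.15, 5.01 and 6.49 CPM in NC cells (adjusted p = 0.196). PALB2, the bridge between BRCA1 and BRCA2, was at 2.54, 3.71 and 4.73 CPM in EPZ and 6.86, 4.21 and 5.28 CPM in NC cells (0.105). In BARD1 and PALB2, NC replicate 2 lay inside the EPZ range. BRCA2, a mediator of strand exchange, was counted at 0.322, 1.08 and 1.24 CPM in EPZ and 0.905, 0.172 and 0.884 CPM in NC cells. The log2 fold change of BRCA2, 0.43 ± 0.62, was smaller than its standard error.

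Among the genes that assist strand exchange, 2 of 9 were lower, a share near the 18.7% of all tested genes, and 1 after the correction. RAD51AP1 (ENSG00000111247, chromosome 12, 4538798 to 4560048, plus strand), whose product stimulates strand pairing, had the lowest fold change of the 40 genes. It had 5.60, 9.60 and 9.33 CPM in EPZ libraries and 23.7, 16.5 and 17.8 CPM in NC libraries. Each EPZ value was well below the lowest NC value, with EPZ replicate 1 the lowest and NC replicate 1 the highest. The log2 fold change of RAD51AP1 was -1.24 ± 0.20 (edgeR adjusted p = 0.000236), or -0.68 ± 0.16 once corrected (0.00606). RAD51AP1 passed in all 6 fits with a library left out, with and without the correction. XRCC2, which works in a complex with RAD51B, RAD51C and RAD51D, had 4.57, 4.13 and 4.48 CPM in EPZ and 6.49, 7.16 and 7.77 CPM in NC cells. The groups did not overlap, and the log2 fold change of XRCC2 was -0.70 ± 0.21 (edgeR adjusted p = 0.0154). It missed the threshold without EPZ replicate 2 (0.0519) or NC replicate 3 (0.0705), and was -0.19 ± 0.20 (0.626) after the correction. RAD51B had 1.38, 1.88 and 2.40 CPM in EPZ and 3.77, 2.63 and 2.60 CPM in NC cells, without overlap and with an adjusted p of 0.108. RAD51C (log2 fold change -0.26 ± 0.17) and RAD51D (-0.084 ± 0.20) overlapped between groups. XRCC3, which pairs with RAD51C, was at 30.9, 23.9 and 23.5 CPM in EPZ and 24.4, 26.4 and 21.4 CPM in NC cells. The annealing protein RAD52 was at 3.51, 4.05 and 2.38 CPM in EPZ and 4.75, 4.64 and 2.84 CPM in NC cells (adjusted p = 0.438), and its groups overlapped. RAD54L, a motor protein of strand exchange, had 12.6, 17.0 and 15.7 CPM in EPZ and 17.8, 19.7 and 17.7 CPM in NC cells. Its groups did not overlap, with a log2 fold change of -0.28 ± 0.16 (adjusted p = 0.174) before and -0.41 ± 0.14 (0.0582) after the correction. Its relative RAD54B was at 0.515, 0.656 and 1.16 CPM in EPZ and 1.79, 1.12 and 1.05 CPM in NC cells.

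Of the genes of end processing, 3 of 5 were lower before the correction and 0 after it. All 5 have a GC content below 43.9%, where 44.7% of all tested genes were lower. For this role and the other roles outside the core complex and the FANCI-FANCD2 pair, edgeR, DESeq2 and limma-voom each called 0 genes higher, and 0 were higher at an unadjusted p under 0.05. MRE11 (ENSG00000020922, chromosome 11, 94415578 to 94493908, minus strand), the nuclease that opens the cut ends, had 12.3, 10.7 and 13.9 CPM in EPZ and 24.3, 19.1 and 22.4 CPM in NC cells. The groups were far apart, with a log2 fold change of -0.83 ± 0.16 (edgeR adjusted p = 0.000798), and -0.28 ± 0.14 after the correction (0.205). EXO1 (chromosome 1, 241847967 to 241895148, plus strand), an exonuclease of long resection, had 16.5, 15.6 and 15.4 CPM in EPZ and 25.9, 23.6 and 25.8 CPM in NC cells. Both groups of EXO1 were tight and did not overlap, with a log2 fold change of -0.67 ± 0.14 (edgeR adjusted p = 0.00159) before and -0.25 ± 0.12 (0.22) after the correction. RBBP8, the MRE11 cofactor also called CtIP, was at 4.18, 5.30 and 5.76 CPM in EPZ and 7.95, 7.99 and 8.58 CPM in NC cells. It was lower by a log2 fold change of -0.68 ± 0.21 (edgeR adjusted p = 0.0152), but not without EPZ replicate 1 (0.0733) or NC replicate 3 (0.0623), nor after the correction (-0.19 ± 0.18, 0.578). NBN, which recruits ATM, was at 5.86, 4.62 and 4.88 CPM in EPZ and 6.16, 5.84 and 9.41 CPM in NC cells (adjusted p = 0.112). RAD50, the partner of MRE11 and NBN in one complex, was counted at 1.09, 0.570 and 0.405 CPM in EPZ and 0.427, 0.801 and 0.670 CPM in NC cells. In GENCODE release 29, 79.7% of the exonic bases of RAD50 are shared with AC116366.3 on the same strand, which had 0 CPM here, and the rule for reads in both is not given in the labels.

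**Figure D3:**
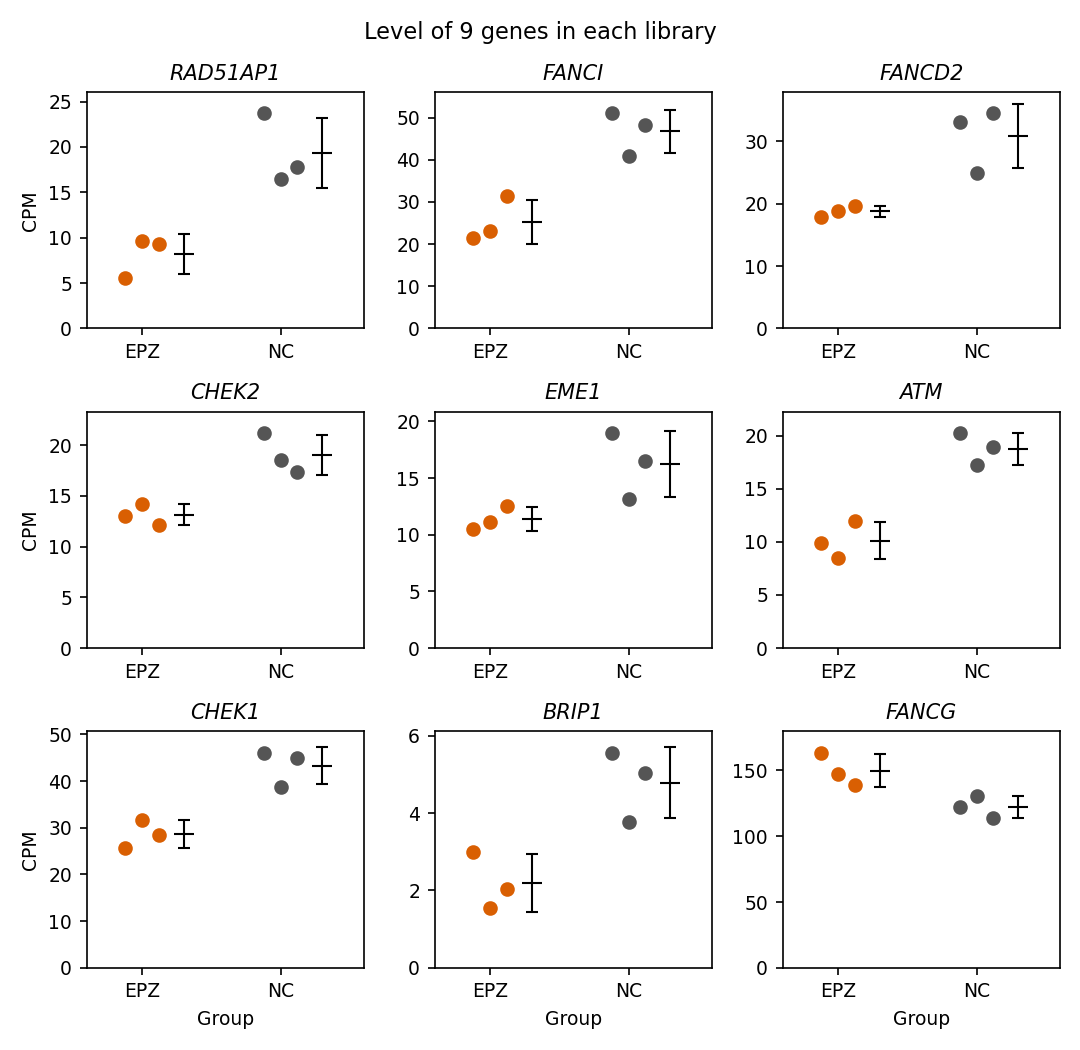
CPM of 9 genes in each library, EPZ left and NC right (points are libraries, the bar beside them is the mean ± SD, n = 3 each, axes from 0). In the first 8 panels every EPZ point is below every NC point, and in the FANCG panel every EPZ point is above.

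Among the genes that process joint molecules, 2 of 5 were lower, beside 18.7% of all tested genes, and 1 after the correction. BLM and RMI1 have a GC content below 43.9%, where 44.7% of all tested genes were lower. BLM (chromosome 15, 90717327 to 90816165, plus strand), the helicase that dissolves double junctions, had 5.05, 4.85 and 5.69 CPM in EPZ and 10.3, 8.47 and 10.2 CPM in NC cells. The 3 EPZ values of BLM were tight and below all NC values, with a log2 fold change of -0.89 ± 0.20 (edgeR adjusted p = 0.00211) before and -0.42 ± 0.17 (0.127) after the correction. RMI1, its partner, was at 2.19, 5.79 and 5.06 CPM in EPZ and 5.58, 4.87 and 5.36 CPM in NC cells, with EPZ replicate 1 apart from the other libraries. EME1 (ENSG00000154920, chromosome 17, 50373220 to 50381483, plus strand), the non-catalytic partner of the nuclease MUS81, had 10.5, 11.1 and 12.5 CPM in EPZ and 19.0, 13.2 and 16.5 CPM in NC cells. The groups of EME1 did not overlap, and its log2 fold change was -0.51 ± 0.17 (edgeR adjusted p = 0.0257) before and -0.51 ± 0.15 (0.0307) after the correction. The call was lost without EPZ replicate 1 (0.0967), EPZ replicate 2 (0.0718), NC replicate 1 (0.15) or NC replicate 3 (0.0796). With the correction EME1 lost it without the same libraries (0.124, 0.0959, 0.179 and 0.0849). MUS81 itself had 57.7, 56.6 and 54.1 CPM in EPZ and 49.3, 54.3 and 46.8 CPM in NC cells, a log2 fold change of 0.16 ± 0.11 (adjusted p = 0.261). SLX4, the scaffold on which these nucleases assemble, was at 10.5, 12.4 and 11.1 CPM in EPZ and 7.97, 8.53 and 11.3 CPM in NC cells (0.235), and its groups overlapped.

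Of the checkpoint genes, 3 of 5 were lower, beside 18.7% of all tested genes, and 1 after the correction, beside 5.57%. ATM, ATR and CHEK1 have a GC content below 43.9%, where 44.7% of all tested genes were lower. ATM (ENSG00000149311, chromosome 11, 108222484 to 108369102, plus strand), the kinase activated by double-strand breaks, had 9.85, 8.52 and 12.0 CPM in EPZ and 20.2, 17.2 and 18.9 CPM in NC cells. The groups were far apart, with a log2 fold change of -0.89 ± 0.17 (edgeR adjusted p = 0.000725), and -0.33 ± 0.15 (0.17) after the correction. CHEK1 (chromosome 11, 125625136 to 125676255, plus strand), the kinase downstream of ATR, had 25.7, 31.7 and 28.4 CPM in EPZ and 46.0, 38.7 and 45.1 CPM in NC cells. CHEK1 did not overlap between groups, with a log2 fold change of -0.60 ± 0.13 (edgeR adjusted p = 0.00172) before and -0.14 ± 0.10 (0.425) after the correction. CHEK2 (ENSG00000183765, chromosome 22, 28687743 to 28742422, minus strand), the kinase downstream of ATM, had 13.0, 14.2 and 12.1 CPM in EPZ and 21.2, 18.5 and 17.3 CPM in NC cells. Its log2 fold change was -0.53 ± 0.16 (edgeR adjusted p = 0.0125) before and -0.50 ± 0.13 (0.0163) after the correction. CHEK2 missed the threshold without EPZ replicate 3 (0.0639) or NC replicate 1 (0.0666). With the correction CHEK2 missed it without EPZ replicate 1 (0.0509), EPZ replicate 3 (0.0781) or NC replicate 1 (0.0865). ATR, the kinase of stalled forks, was at 3.70, 3.73 and 5.16 CPM in EPZ and 6.51, 3.69 and 8.47 CPM in NC cells, with NC replicate 2 as low as the EPZ libraries. ATR did not pass with all libraries (adjusted p = 0.113), and did without NC replicate 2 (0.0128). Its partner ATRIP was at 27.4, 24.1 and 25.6 CPM in EPZ and 28.7, 24.7 and 25.4 CPM in NC cells, with a log2 fold change of -0.034 ± 0.13 before and -0.35 ± 0.12 (0.0682) after the correction, which passed without NC replicate 2 (0.033).

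The 40 genes had a low transcript GC content. Their median was 42.1%, beside 49.4% over all tested genes, and the range ran between 36.0% in RMI1 and 63.8% in XRCC3. In the 3 of 10 GC classes with the lowest GC content, below 43.9%, 11 of 25 of the genes were lower (44%), beside 44.7% of all 4646 tested genes in those classes. The median log2 fold change there was -0.66 for the 25 genes and -0.52 for all 4646. Above the median GC content of tested genes, EME1 and CHEK2 were lower and FANCG was higher among 11 genes, and EME1 and CHEK2 were still lower after the correction. The genes also spanned more of the genome, with a median of 59.8 kb, beside 25.6 kb over all tested genes. The Pearson correlation of log2 fold change with log2 span was -0.35 over the 40 genes and -0.19 over all tested genes, again a description. RAD51B, the longest at 910.4 kb, was not called, and EME1, at 8.26 kb, was lower. The correction turned the sign of 13 of the 40 values, and the median of the 40 was -0.19, beside -0.0044 over all tested genes.

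**Figure D4:**
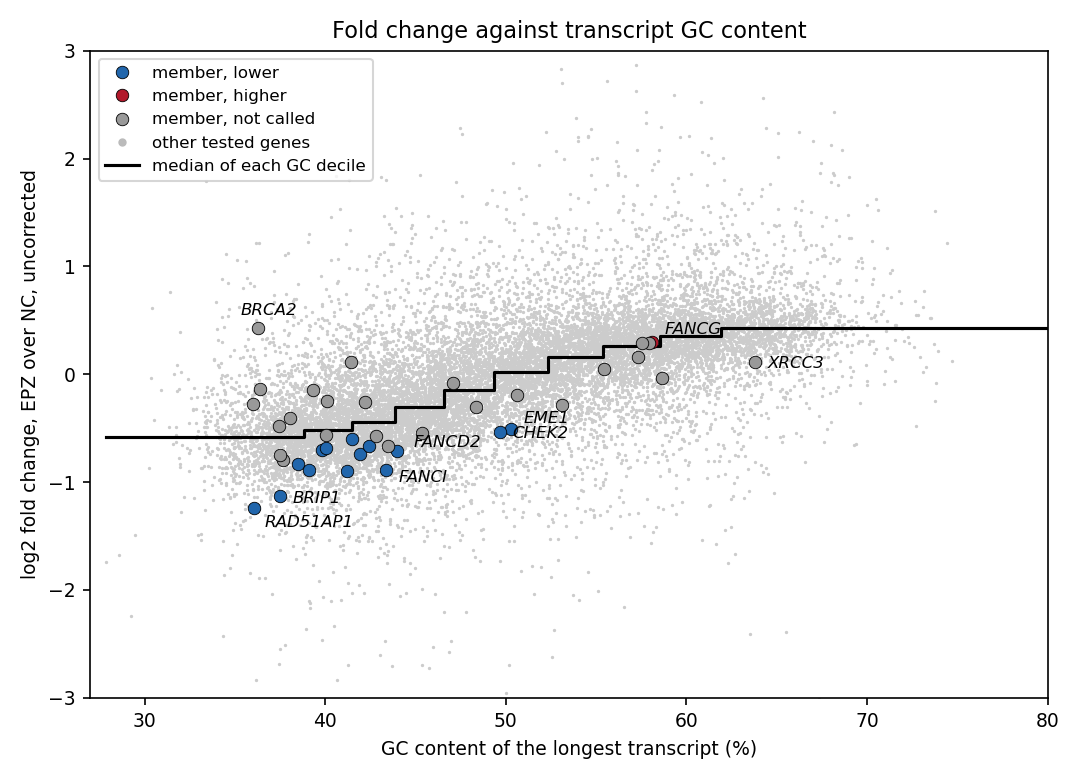
Uncorrected log2 fold change of EPZ over NC against the GC content of the longest transcript (small points are tested genes within the axes, the black line is the median of each GC class, large points are the 40 genes coloured by call). RAD51AP1, BRIP1 and FANCI lie below the line at low GC content, and EME1 and CHEK2 below it near the middle.

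Per length, the genes spanned a wide range of levels. In TPM, computed from the counts and the deposited gene lengths, FANCG was the highest, at 122 ± 3.74 in EPZ and 108 ± 3.26 in NC cells (mean ± SD, n = 3 each). UBE2T came next at 70.3 ± 0.533 TPM in EPZ and 91.2 ± 13.4 TPM in NC cells, followed by FANCE at 38.1 ± 2.44 TPM in EPZ and 34.0 ± 1.30 TPM in NC cells. These were the same leading genes in both groups. FANCI was at 9.64 ± 2.45 TPM in EPZ and 19.4 ± 2.88 TPM in NC cells, and its partner FANCD2 at 6.62 ± 0.695 TPM in EPZ and 11.9 ± 2.46 TPM in NC cells. RAD51AP1 was at 9.53 ± 3.08 TPM in EPZ and 24.3 ± 5.39 TPM in NC cells, rank 13 of 40 in EPZ and rank 5 in NC cells. In NC cells the neighbours EXO1 (19.5 ± 1.87 TPM) and FANCI did not differ beyond their spread. The lowest were RAD50, whose count is uncertain, at 0.203 ± 0.0922 TPM in EPZ and 0.207 ± 0.0564 TPM in NC cells, and BRCA2, at 0.217 ± 0.127 TPM in EPZ and 0.174 ± 0.114 TPM in NC cells, which did not differ beyond their spread.

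**Figure D5:**
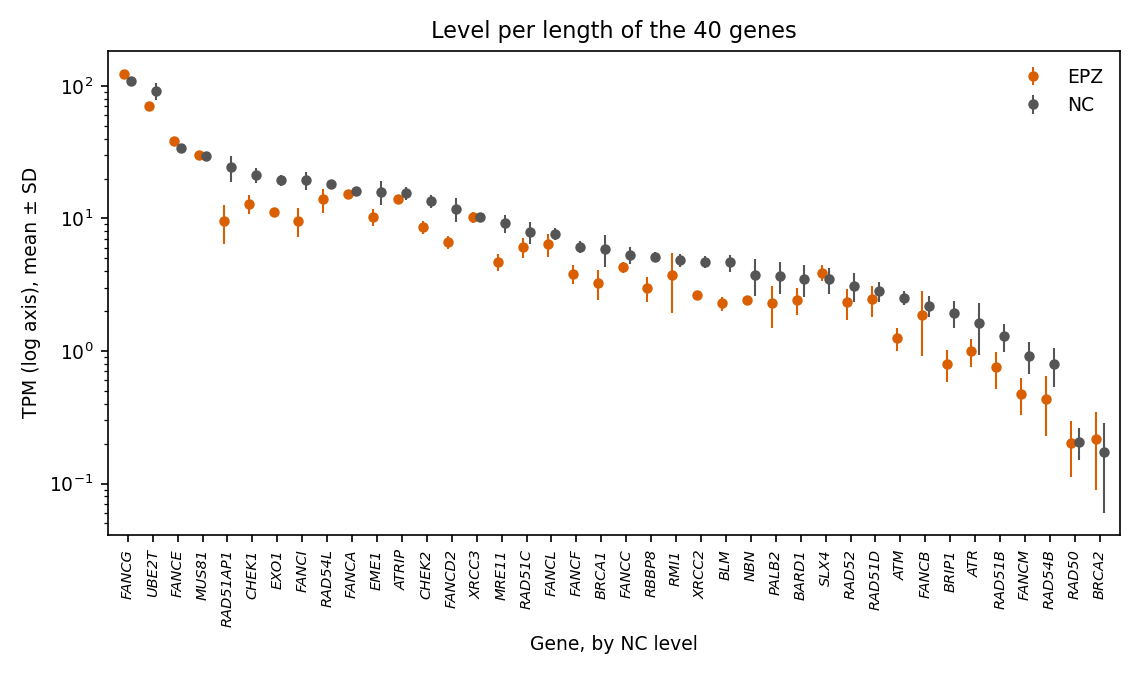
TPM of the 40 genes on a log axis, ordered by the NC level (mean ± SD, n = 3 libraries each, EPZ orange and NC grey). FANCG and UBE2T lead in both groups, and BRCA2 and RAD50 are at the bottom.

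Several genes share exonic bases with a neighbour. Of the exonic bases of XRCC3, 76.7% lie opposite KLC1, which had 31.0 CPM in EPZ and 32.0 CPM in NC cells. For RAD54L 25.1% lie opposite LRRC41 (127 CPM in EPZ and 98.0 CPM in NC cells, log2 fold change 0.37 ± 0.11), and for MUS81 13.9% opposite CFL1 (1307 CPM in EPZ and 1037 CPM in NC cells, 0.33 ± 0.10). For EME1 16.4% lie opposite LRRC59, at 212 CPM in EPZ and 243 CPM in NC cells, with a log2 fold change of -0.20 ± 0.094 (edgeR adjusted p = 0.0994). On the same strand, RAD54B shares 59.1% with FSBP and ATRIP 27.9% with TREX1, and TREX1 had 0 CPM in both groups. The library protocol marks strand, but the strand setting of the counting is not given in the labels, so these genes and their neighbours may not be fully separated.

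Other genes of the same pathways were listed by role. Of 60 tested genes 22 were lower (36.7%, beside 18.7% of all tested genes) and 6 higher (10%, beside 15.0%). After the correction 7 were lower and 2 higher, beside 5.57% and 5.40% of all tested genes. Without EPZ replicate 1, 2 or 3 the lower ones numbered 13, 15 and 14, and without NC replicate 1, 2 or 3 they numbered 9, 24 and 11. Over all genes the lower ones in these fits numbered 1884, 2543 and 2315, and 1753, 3167 and 1973, beside 2899 with all libraries. The median log2 fold change of the 60 pathway genes was -0.36 before and -0.081 after the correction. Among further Fanconi genes 6 of 16 were lower and 4 higher, beside 18.7% and 15.0% of all tested genes. After the correction 2 were lower and 0 higher, beside 5.57% and 5.40%. USP1 (log2 fold change -0.67 ± 0.17), which removes ubiquitin from FANCD2, its cofactor WDR48 (-0.97 ± 0.17) and the ubiquitin ligase RFWD3 (-0.49 ± 0.12) were lower, and the translesion subunit MAD2L2 (0.40 ± 0.10) was higher. The core complex partners FAAP100 (0.44 ± 0.12), CENPX (0.39 ± 0.11) and FAAP20 (0.35 ± 0.11), named after their values were seen, were also higher. The partners FAAP24 (-0.038 ± 0.21, edgeR adjusted p = 0.907) and CENPS (-0.69 ± 0.43, 0.229), also named after their values were seen, were not called. Every EPZ library lay below every NC library for CENPS. After the correction none of the 4 higher genes was called, nor was USP1 (-0.17 ± 0.14, edgeR adjusted p = 0.485). WDR48 (-0.43 ± 0.14, 0.0496) and RFWD3 (-0.29 ± 0.093, 0.0486) were just under the threshold, and each passed in 1 of 6 corrected fits with a library left out. ERCC1 (0.046 ± 0.10), a nuclease subunit, and UHRF1 (0.10 ± 0.10) did not pass.

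Among further recombination genes 7 of 21 were lower and 1 higher before the correction, beside 18.7% and 15.0% of all tested genes. After it 1 was lower and 1 higher, beside 5.57% and 5.40%. The 1 higher gene, named after its values were seen, was ZSWIM7. Its log2 fold change was 0.54 ± 0.20 (edgeR adjusted p = 0.0406) before and 0.74 ± 0.18 (0.0109) after the correction. With a library left out ZSWIM7 passed in 2 of 6 fits, and in 3 of 6 with the correction. The nuclease and helicase DNA2 (log2 fold change -0.97 ± 0.19), SFR1 (-0.64 ± 0.20), the end-joining polymerase POLQ (-0.75 ± 0.26) and RPA3 (-0.38 ± 0.13), a subunit of the single-strand binding protein, were lower before the correction. The groups of POLQ overlapped, and with a library left out SFR1 and POLQ passed in 3 of 6 fits and RPA3 in 2. After the correction none of the 4 was called, with log2 fold changes of -0.40 ± 0.18 for DNA2 (edgeR adjusted p = 0.161), -0.093 ± 0.18 for SFR1 (0.807), -0.22 ± 0.23 for POLQ (0.61) and -0.13 ± 0.11 for RPA3 (0.509). RPA1 (-0.12 ± 0.10) and the helicase RECQL4 (0.13 ± 0.12) did not pass before the correction, and the groups of RECQL4 overlapped. RECQL4 was lower after the correction (-0.31 ± 0.080, edgeR adjusted p = 0.0132), in 4 of 6 fits with a library left out. Among further checkpoint genes 9 of 23 were lower and 1 higher, beside 18.7% and 15.0% of all tested genes. After the correction 4 were lower and 1 higher, beside 5.57% and 5.40%. The 1 higher gene, named after its values were seen, was BABAM2. Its log2 fold change was 0.38 ± 0.14 (edgeR adjusted p = 0.0407) before and 0.43 ± 0.12 (0.0193) after the correction. With a library left out BABAM2 passed in 0 of 6 fits, and in 3 of 6 with the correction. The chromatin ligase RNF168 (-0.85 ± 0.17), the phosphatase CDC25C (-0.72 ± 0.15), the kinase WEE1 (-0.64 ± 0.14) and the clamp subunit RAD1 (-0.51 ± 0.12) were lower before the correction. After it CDC25C (-0.58 ± 0.13, edgeR adjusted p = 0.004) and RNF168 (-0.52 ± 0.14, 0.018, in 3 of 6 fits with a library left out) were still lower, and WEE1 (-0.078 ± 0.10, 0.698) and RAD1 (-0.075 ± 0.11, 0.726) were not called. CDC25B (0.10 ± 0.11) and the kinase PKMYT1 (0.013 ± 0.11) did not pass, and PKMYT1 was lower after the correction (-0.46 ± 0.079, edgeR adjusted p = 0.000676).

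Markers of the cell cycle moved with these genes. Of 32 S phase genes outside the 40, 17 were lower and 3 higher, beside 18.7% and 15.0% of all tested genes, and their summed level was 1591 to 1668 CPM in EPZ and 1769 to 1945 CPM in NC libraries. DTL (log2 fold change -1.11 ± 0.16), GMNN (-0.85 ± 0.12), RRM1 (-0.81 ± 0.12) and PCNA (-0.55 ± 0.10) had the smallest p among them. The 3 higher genes, named after their values were seen, were MCM2 (0.33 ± 0.10), MCM5 (0.29 ± 0.11) and UNG (0.32 ± 0.11). Of 51 genes of G2 and mitosis 39 were lower and 2 higher, with sums of 4425 to 4689.6 CPM in EPZ and 4810 to 5128 CPM in NC libraries. The kinase CDK1 (-1.13 ± 0.13), NEK2 (-1.17 ± 0.14), HMGB2 (-0.81 ± 0.11) and HJURP (-0.76 ± 0.11) had the smallest p in this list, and the 2 higher genes, again named after their values were seen, were TUBB4B (0.43 ± 0.10) and RANGAP1 (0.34 ± 0.11). After the correction 8 S phase genes were lower and 1 (UNG) higher, and 22 genes of G2 and mitosis were lower and 0 higher, beside 5.57% and 5.40% of all tested genes. The part of the cell cycle in the result for the 40 genes was not tested.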

How the data were processed

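Polyadenylated RNA of 6 libraries was sequenced with a protocol that marks strand, per the labels' protocols. The submitters' processing notes name HISAT2 2.2.1 and GRCh38, while no source used here names the counting tool or its strand setting. The deposited file holds whole-number read counts per gene, not normalized by the authors, with a gene length column that was used for TPM. Genes with enough reads (edgeR's filterByExpr, count minimum 10) entered edgeR 4.0.16, run in R 4.3.3 (TMM scaling, quasi-likelihood test, EPZ over NC, threshold 0.05 on the Benjamini-Hochberg adjusted p). The correction fitted, in each library, natural splines with 5 degrees of freedom on GC content and length to how far each gene's log2 CPM lay from its mean, and used the result as an offset. GC content and length came from GENCODE release 29, whose coordinates equal those of all 58735 genes in the table. Each standard error was derived from the log2 fold change and edgeR's F statistic. Tests were first run on simulated data. Alternatives were DESeq2 1.42.0, limma-voom (limma 3.58.1), other scalings and filters, a replicate block and each library left out. The members and gene lists were chosen with earlier results of these data known. All 40 members are named. Of the further pathway genes, up to 4 called genes with the smallest p and 2 not called genes with the highest CPM are named per list, and up to 4 called genes per cell cycle list. Genes of these lists named beyond this rule are marked as named after their values were seen. Of 63 further pathway symbols 62 matched the table. FANCI, RAD54B and NBN had no promoter window. With 3 libraries a group, an exact permutation test of a single value cannot go below p = 0.1.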

Additional observations from a re-analysis of the deposited data

How the results depend on the processing

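Of the 40 genes, 14 were lower with DESeq2, limma-voom, the other scalings, the other filters, protein-coding genes alone and the length correction alone, and 13 with the replicate block. Lower genes among the 40 numbered 5 after the GC and length correction, 4 after the GC correction alone and 3 with the replicate block and both corrections. Higher genes among the 40 numbered 2 with DESeq2 and with the length correction alone, and 0 with the replicate block, the GC correction alone, the GC and length correction, and that correction with the block. FANCG had log2 fold changes of -0.0040 after the GC and length correction and -0.0031 with the block added. With the correction and 1 library left out its values were -0.047 to 0.052, and 0.23 to 0.36 without the correction; the cause was not tested. Of the further pathway genes, 11 were lower and 3 higher with the replicate block, 7 and 2 after the GC and length correction, 4 and 2 after the GC correction alone, and 4 and 3 with the block and both corrections. Over all genes, 2899 were lower and 2326 higher in the main test, 863 and 836 after the GC and length correction, 729 and 761 after the GC correction alone, 685 and 688 with the block and both corrections, and 2226 and 2783 after the length correction alone. With 1 library left out, the 40 genes held 11 to 15 lower and 0 to 2 higher, the further pathway genes 9 to 24 lower and 2 to 5 higher, and all genes 1753 to 3167 lower and 1350 to 2780 higher. With the correction as well, these were 2 to 6 lower and 0 higher, 3 to 5 lower and 0 to 3 higher, and 512 to 815 lower and 397 to 857 higher. Whether the replicate numbers pair the libraries is not given in the labels. Deviations of same-numbered libraries from their group means correlated at -0.11, -0.093 and 0.047, and those of differently numbered libraries at -0.080 to 0.15. With 3 libraries a group these values depend on each other, so they cannot decide whether the libraries were paired. Fold changes of the sparsest genes are imprecise: those of BRCA2 and RAD50 have standard errors of 0.62 and 0.59 on the log2 scale. The cause of their low counts was not tested, and RAD50 shares most of its exonic bases with a neighbour.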
